A study of Mus musculus with 10 samples.

Results

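The mRNAs described here encode 8 proteins that bring iron into the cell, store it, or sense and carry it inside the cell: Tfrc, Fth1, Ftl1, Aco1, Ireb2, Fbxl5, Pcbp1 and Pcbp2. They were chosen by name, as a set picked around Tfrc, whose higher level in soma was known from these same libraries. All 8 genes were in the expression table, with 11 transcripts out of 17292 and 8 genes out of 13698. Since neurite and soma values chose the set, those values are given for its members as a description without a test.

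RNA was sequenced from neurites and soma of N2A cells (Neuro2a, a mouse neuroblastoma line). Cultures received 1 of 5 plasmids. Those were CTG480 (a DMPK fragment carrying 480 CTG repeats, which sequester MBNL proteins), the motorless tails of the kinesins Kif1bα and Kif1c (dominant negatives), and as controls CTG0 (the same DMPK fragment with 0 repeats, labelled DMPKS) and the tail of Kif1bβ. All cultures were transfected transiently, grew through a porous membrane and extended neurites for 48 h without serum before the fractions were separated, and wells of a plate were pooled. There was 1 library for each transfection and fraction, 10 in all, from an experiment done once, so p-values measure the spread between transfections and not between repeated cultures.

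Iron in serum is carried by transferrin and enters cells through the transferrin receptor. Inside the cell, iron that is not used is held in ferritin, a shell of heavy and light chains. The iron regulatory proteins IRP1 (the product of Aco1) and IRP2 (the product of Ireb2) bind a hairpin called the iron responsive element when iron is scarce. Bound in the 3′ UTR of Tfrc mRNA, they protect it from decay, whereas bound in the 5′ UTR of ferritin mRNAs, they block translation. FBXL5 senses iron and marks IRP2 for destruction, and PCBP1 and PCBP2 carry iron to ferritin and to other proteins.

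The hairpins are shown because they are the sequences by which this system reads iron, and because Tfrc and the ferritins carry them at opposite ends of the mRNA. A search of GENCODE transcripts on GRCm38 (mm10, the build of the data) looked for C, then 5 bases, the loop CAGUGN, and 5 bases pairing with the first 5 in at least 4 of 5 places, on the transcript's own strand. Tfrc, on the plus strand of chromosome 16, held 4 matches, all in exon 19 of 19 within its 3′ UTR. The first is at chr16:32631219-32631247, the second at chr16:32631598-32631626, the third at chr16:32631663-32631691 and the fourth at chr16:32631710-32631738. Fth1 held 1 match in exon 1 in its 5′ UTR, at chr19:9982732-9982760 on the plus strand, and Ftl1 held 1 in exon 1 in its 5′ UTR, at chr7:45459779-45459807 on the minus strand. Capitals mark the loop. The letters A to D give only the order of these matches, and hairpins with any other loop were not searched for.
Tfrc hairpin A: aauuaucggaagCAGUGCcuuccauaauu
Tfrc hairpin B: cauuaucgggagCAGUGUcuuccauaaug
Tfrc hairpin C: cuauaucggagaCAGUGAucuccauaugu
Tfrc hairpin D: aauuaucgggaaCAGUGUuucccauaauu
Fth1 hairpin: uuccugcuucaaCAGUGCuugaacggaac
Ftl1 hairpin: gucuugcuucaaCAGUGUuugaacggaac

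The 4 Tfrc hairpins had the same base at 16 of 29 positions and spanned 520 bases, with gaps of 350, 36 and 18 bases between neighbours. All 4 formed 5 of 5 pairs above the bulged C and 5 of 5 below it. The Fth1 and Ftl1 hairpins had the same base at 26 of 29 positions, and each formed 5 pairs above the bulge and 4 below. Of 9429 genes searched, 72 (0.76%) had a match in the 5′ UTR and 456 (4.84%) in the 3′ UTR. With 5 of 5 pairs required, 15 and 67 genes had a match, and 1 gene, Tfrc, had 3 or more in its 3′ UTR. Aco1, Ireb2, Fbxl5 and Pcbp1 had no match in these windows. One Pcbp2 transcript had a match in its coding sequence across an exon junction, as 617 genes (6.54%) did in theirs. These matches describe letters and were not assayed.

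Levels are in normalized TPM, a length-corrected share of the transcripts of a library after the authors' normalization between libraries, summed over the transcripts of a gene. Ftl1 had the highest mean over the 10 libraries (1403 TPM), followed by Fth1 (578), Pcbp2 (369), Pcbp1 (213), Tfrc (162), Ireb2 (41.2), Fbxl5 (26.0) and Aco1 (18.1). Of the genes tested, 0.954% were higher than Ftl1 and 60.1% were higher than Aco1. In this order only Pcbp1 and Tfrc overlapped over the libraries, with a lowest Pcbp1 value of 194 TPM and a highest Tfrc value of 197 TPM. Every other pair of neighbours was apart in all 10 libraries. By these levels, mRNAs for storage came first, chaperones and uptake next and the iron sensors last.

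The libraries lack counts, so their depth is unknown. Their TPM summed to 870745 to 892618 in neurites and 1045625 to 1183538 in soma, and noncoding transcripts took 24.9 to 28.0% of neurite and 33.2 to 38.7% of soma libraries. All 4 tested RNAs known to stay in the nucleus (Malat1 among them) were higher in soma, with log2 ratios between −1.01 and −0.34. Neuronal markers summed to 1140 to 1202 TPM in neurites and 1297 to 1337 TPM in soma, with 9 of 12 listed genes in the table. Singly they went both ways, with log2 ratios between −0.55 and 0.25. In the limma model described below, 2 passed an adjusted p of 0.05 toward neurites and 5 toward soma, beside 19.4% and 18.6% of all genes. The markers of macrophages and fibroblasts summed to at most 4.38 TPM, the 1 erythroid marker in the table to at most 8.59 TPM, and astrocyte and hepatocyte markers were not analysed here. Muscle markers summed to 78.7 to 89.1 TPM in neurites and 78.5 to 86.2 TPM in soma. Only 2 of 4 listed muscle markers were in the table and 1 was tested, so this sum comes mostly from 1 gene. The part of all these markers in the results below was not tested. Each value is a share of the RNA of a fraction, and in such bulk samples fewer cell parts and less RNA per cell cannot be told apart.

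Tfrc, the receptor that takes up transferrin-bound iron, had less mRNA in neurites than in soma in 5 of 5 transfections. Its level in neurites was 124 TPM with CTG480, 148 with the Kif1bα tail, 129 with the Kif1c tail, 130 with CTG0 and 128 with the Kif1bβ tail. In soma it was 195 TPM with CTG480, 197 with the Kif1bα tail, 190 with the Kif1c tail, 190 with CTG0 and 191 with the Kif1bβ tail. The lowest soma library thus stood above the highest neurite library, and the 4 neurite libraries other than that of the Kif1bα tail lay between 124 and 130 TPM. Tfrc averaged 132 ± 9.28 TPM in neurites and 193 ± 3.13 TPM in soma (SD, n = 5 each). The coefficient of variation was 7.04% in neurites and 1.62% in soma.

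The localization ratio, log2(neurite/soma) with a pseudocount of 0.1 TPM, was −0.55 ± 0.0428 (SE) for Tfrc, a level in soma 1.46-fold that in neurites. It was −0.65 with CTG480, −0.41 with the Kif1bα tail, −0.55 with the Kif1c tail, −0.55 with CTG0 and −0.58 with the Kif1bβ tail. Over the 9853 genes with a mean of at least 5 TPM the median ratio was 0.01, with the 5th percentile at −0.45 and the 95th at 0.37. Tfrc was at percentile 2.5 of these genes, near the soma end of the range.

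**Figure D1:**
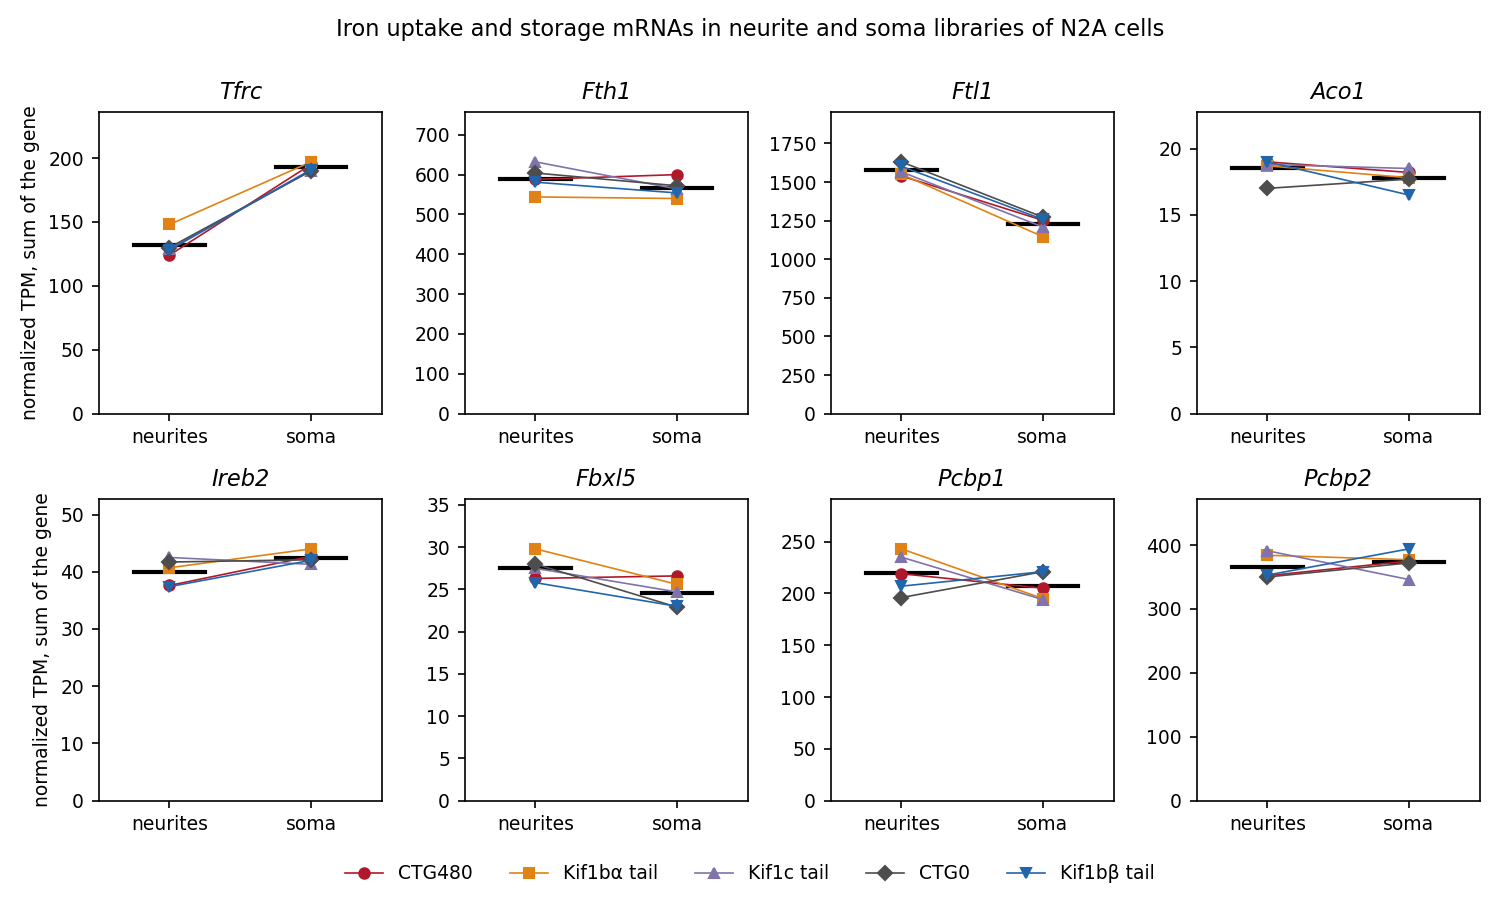
Normalized TPM (linear axes from 0) of the 8 genes in the 5 neurite libraries (left of each panel) and the 5 soma libraries (right), with a line joining the fractions of a transfection and a black bar at the mean. Tfrc lay between 124 and 148 TPM in neurites and between 190 and 197 TPM in soma, Ftl1 between 1540 and 1631 TPM in neurites and between 1146 and 1273 TPM in soma, and the other 6 genes overlapped.

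Ftl1, the ferritin light chain, which helps iron crystallize in the shell, went the other way and was higher in neurites in 5 of 5 transfections. In neurites it had 1540 TPM with CTG480, 1551 with the Kif1bα tail, 1566 with the Kif1c tail, 1631 with CTG0 and 1602 with the Kif1bβ tail. In soma it had 1252 TPM with CTG480, 1146 with the Kif1bα tail, 1209 with the Kif1c tail, 1273 with CTG0 and 1258 with the Kif1bβ tail. No neurite library fell to the level of a soma library. The means were 1578 ± 37.8 TPM in neurites and 1227 ± 51.3 TPM in soma (SD, n = 5 each), and the localization ratio was 0.36 ± 0.0387 (SE), at percentile 94.5 of all genes. The ratio lay between 0.30 (CTG480) and 0.44 (Kif1bα tail), and its SD over transfections, 0.0495, was smaller than that of all but 4.29% of genes. Of the 31-base words of the Ftl1 transcript, 85.4% also occur in another annotated gene, mostly the pseudogene Ftl1-ps1, which was not analysed here, so reads of both cannot be told apart.

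Fth1, the ferritin heavy chain, which oxidizes iron on its way into the shell, overlapped between the fractions. Its neurite libraries held 588 TPM with CTG480, 544 with the Kif1bα tail, 632 with the Kif1c tail, 604 with CTG0 and 581 with the Kif1bβ tail. Its soma libraries held 600 TPM with CTG480, 540 with the Kif1bα tail, 564 with the Kif1c tail, 572 with CTG0 and 554 with the Kif1bβ tail. The lowest library of each fraction came from the Kif1bα tail. Fth1 averaged 590 ± 32.3 TPM in neurites and 566 ± 22.7 TPM in soma (SD, n = 5 each), a localization ratio of 0.06 ± 0.0407 (SE), above 0 in 4 of 5 transfections.

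The mRNAs of the ferritin chains thus differed in their balance within the same library. Ftl1 was 2.48- to 2.85-fold as high as Fth1 in neurites and 2.09- to 2.27-fold as high in soma, without overlap. The mean was 2.68 ± 0.142 in neurites and 2.17 ± 0.0768 in soma (SD, n = 5 each). This ratio does not change when a whole library is multiplied by a common factor. How far it depends on the authors' normalization between libraries was not tested. Tfrc was 0.205- to 0.272-fold the level of Fth1 in neurites and 0.325- to 0.365-fold in soma. Set against Ftl1, it was 0.0797 to 0.0955 in neurites and 0.150 to 0.172 in soma, again without overlap.

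The sensors overlapped between the fractions. Aco1, which is a cytosolic aconitase when iron is plentiful and IRP1 when it is not, had 19.0 TPM in neurites with CTG480, 18.7 with the Kif1bα tail, 18.8 with the Kif1c tail, 17.0 with CTG0 and 19.0 with the Kif1bβ tail. In soma it had 18.2 TPM with CTG480, 17.8 with the Kif1bα tail, 18.5 with the Kif1c tail, 17.7 with CTG0 and 16.5 with the Kif1bβ tail. Aco1 had means of 18.5 ± 0.864 TPM in neurites and 17.8 ± 0.756 TPM in soma (SD, n = 5 each) and a localization ratio of 0.06 ± 0.0522 (SE).

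Ireb2, the mRNA of IRP2, had 37.6 TPM in neurites with CTG480, 40.7 with the Kif1bα tail, 42.5 with the Kif1c tail, 41.7 with CTG0 and 37.4 with the Kif1bβ tail. In soma it ranged from 41.3 to 44.0 TPM, a narrower spread than the 37.4 to 42.5 TPM of neurites. The localization ratio of Ireb2 was −0.09 ± 0.0478 (SE), below 0 in 4 of 5 transfections. Ireb2 was 1.97- to 2.46-fold as high as Aco1 in neurites and 2.23- to 2.54-fold as high in soma, which overlap.

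Fbxl5, the iron-sensing subunit of the ubiquitin ligase that removes IRP2, had 26.3 TPM in neurites with CTG480, 29.8 with the Kif1bα tail, 27.5 with the Kif1c tail, 28.0 with CTG0 and 25.8 with the Kif1bβ tail. In soma it had 26.6 TPM with CTG480, 25.6 with the Kif1bα tail, 24.7 with the Kif1c tail, 22.9 with CTG0 and 23.0 with the Kif1bβ tail. Neurites were higher in 4 of 5 transfections, and CTG480 was the exception with a ratio of −0.01. The mean ratio was 0.16 ± 0.0533 (SE). Of its transcripts, NM_001159963, with a 3′ UTR of 683 bases, carried 83.5 to 93.7% of the Fbxl5 level in neurites and 84.7 to 93.4% in soma. The other, NM_178729, has fewer exons and a longer 3′ UTR of 2292 bases, and its mean was 3.11 TPM. Taken alone, NM_001159963 had a ratio above 0 in 5 of 5 transfections, with 0.10 for CTG480. NM_178729 was at −1.05 with CTG480, from 1.65 TPM in neurites and 3.52 TPM in soma. The CTG480 exception thus rests on this low transcript.

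The chaperone mRNAs overlapped between the fractions and varied between transfections. Pcbp1 averaged 220 ± 19.5 TPM in neurites and 207 ± 13.4 TPM in soma, and Pcbp2 averaged 366 ± 19.7 TPM in neurites and 373 ± 17.2 TPM in soma (SD, n = 5 each). Their localization ratios were 0.08 ± 0.0778 for Pcbp1 and −0.03 ± 0.0533 for Pcbp2 (SE). Pcbp1 had the largest SD over transfections of the 8 genes, 0.219, against a median of 0.139 over all genes. Pcbp2 was 1.58- to 1.79-fold as high as Pcbp1 in neurites and 1.68- to 1.94-fold in soma. Its 3 transcripts had overlapping shares in the fractions: NM_001103165 took 51.5 to 55.6% in neurites and 53.7 to 56.3% in soma, NM_001174073 took 24.3 to 26.8% in neurites and 23.1 to 25.5% in soma, and NM_001103166 took 20.1 to 22.6% in neurites and 18.8 to 22.3% in soma.

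In the model of all genes (limma, transfection as a block), 19.4% of those tested passed an adjusted p of 0.05 toward neurites and 18.6% toward soma. Between neurite and soma libraries 28.0% of genes had no overlap, as did 2 of the 8 (Tfrc and Ftl1), and nothing is read from that count, since the set was picked on this contrast. The split over all genes depends on scaling: 1911 genes toward neurites and 1835 toward soma as deposited, 7093 and 203 with each library scaled to a common sum over all rows, and 4339 and 893 with a common sum over protein-coding rows. The median ratio of the 8 was 0.06, beside 0.01 over all genes. Scaled over all rows, the median of all genes moved to 0.35, Tfrc to −0.21, Ftl1 to 0.70 and the other 6 to between 0.25 and 0.50. Scaled over protein-coding rows alone, the median was 0.15, Tfrc −0.41, Ftl1 0.50 and the other 6 between 0.05 and 0.30. The sign of Ireb2 and of Pcbp2 flipped under both scalings. The sign of Tfrc and of Ftl1 did not. Relative to the median of all genes, Tfrc was at −0.56 and Ftl1 at 0.35 under all 3 scalings. That outcome was fixed in advance, since a common factor per library shifts all genes and their median alike. It is therefore no check of these values.

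**Figure D2:**
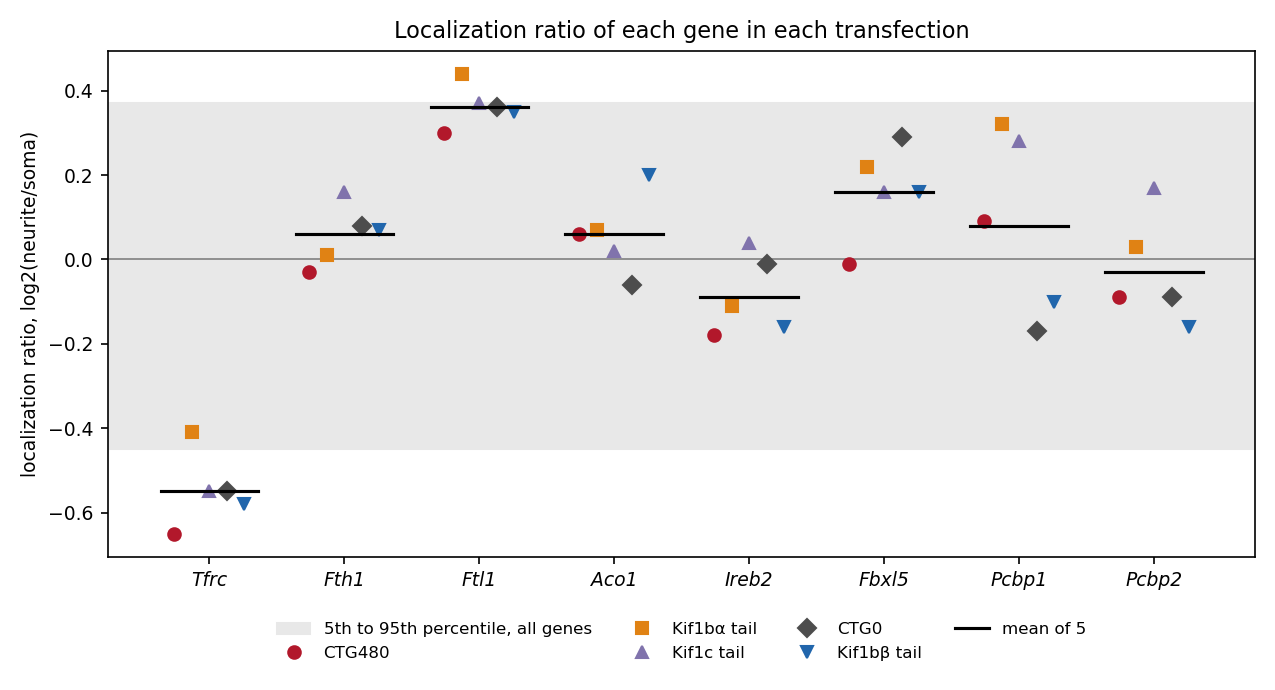
Localization ratio, log2(neurite/soma), of each gene in each transfection (symbols) with the mean of 5 (black bar). The grey band holds the genes between the 5th and 95th percentile of all 9853 genes, −0.45 to 0.37. The mean of Tfrc, −0.55, lay below it, while Pcbp1 was above 0 with CTG480 and the Kif1bα and Kif1c tails and below 0 with CTG0 and the Kif1bβ tail.

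By Pearson's r over the 10 libraries, on log2 levels of 5527 genes with a mean of at least 20 TPM, the genes most like Tfrc were Itgb1 (integrin β1, 0.995), Cyp51 (a sterol synthesis enzyme, 0.994), 4932438A13Rik (0.994), Serinc1 (0.993) and Lnpep (a membrane aminopeptidase, 0.993). The libraries form a neurite and a soma cluster, so r here mostly repeats the gap between them, and no p is given. Itgb1 averaged 282 TPM in neurites and 407 TPM in soma, and Lnpep 41.0 TPM in neurites and 61.3 TPM in soma. All 5 genes had their highest neurite library below their lowest soma library, with ratios between −0.58 and −0.48, and so were close to Tfrc in both sign and size.

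The next comparison asked whether repeats or kinesin tails moved these mRNAs between soma and neurites. The perturbed transfections (CTG480, Kif1bα tail and Kif1c tail) were set against the control ones (CTG0 and Kif1bβ tail), a contrast that the choice of genes did not use. No gene of the set passed. The model on the 5 localization ratios called 0% of the 9853 genes at an adjusted p of 0.05 (0 genes, also without the trend, with 512, or 5.20%, at an unadjusted p under 0.05), and adjusted p of the 8 genes ran between 0.939 and 0.999. The median difference of the 8 was 0.02, beside 0.00 over all genes. With 3 ratios against 2, the model has few degrees of freedom, and the lack of calls does not show that ratios did not differ.

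The ratio of Tfrc averaged −0.54 ± 0.12 in the perturbed and −0.57 ± 0.0222 in the control transfections (SD, n = 3 and 2), a difference of 0.03 ± 0.123 (SE, limma adjusted p = 0.998). Ftl1 averaged 0.37 ± 0.0687 in the perturbed and 0.35 ± 0.00645 in the control transfections, a difference of 0.02 ± 0.0946 (SE). For Fth1, Aco1 and Ireb2 the difference lay between −0.03 and 0.01, and for Fbxl5 it was −0.11 ± 0.11 (SE). A larger difference, 0.36 ± 0.106 (SE) for Pcbp1, did not pass either, so shifts above these errors could also go uncalled here.

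Pcbp1 was the gene of the set with the largest difference. In neurites it had 219 TPM with CTG480, 243 with the Kif1bα tail and 235 with the Kif1c tail, against 196 with CTG0 and 207 with the Kif1bβ tail. In soma it had 205 TPM with CTG480, 195 with the Kif1bα tail and 194 with the Kif1c tail, against 221 with CTG0 and 221 with the Kif1bβ tail. The perturbed libraries were thus the higher ones in neurites and the lower ones in soma, without overlap in either fraction. The share of all genes separated in this way within each fraction was not counted, so nothing is read from it. Its ratio was 0.09 with CTG480, 0.32 with the Kif1bα tail and 0.28 with the Kif1c tail, against −0.17 with CTG0 and −0.10 with the Kif1bβ tail, a difference of 0.36 ± 0.106 (SE). The unadjusted p of limma was 0.0134 and the adjusted p 0.939, so it did not pass over all genes. Leaving out 1 transfection at a time gave differences between 0.32 and 0.433. Among all genes, 10.4% had every perturbed ratio above every control ratio, and 1.30% had every perturbed ratio above 0 and every control ratio below 0.

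Pcbp2 differed in the same direction, with less separation. In neurites it had 352 TPM with CTG480, 384 with the Kif1bα tail and 391 with the Kif1c tail, against 350 with CTG0 and 353 with the Kif1bβ tail. In soma it had 375 TPM with CTG480, 377 with the Kif1bα tail and 346 with the Kif1c tail, against 372 with CTG0 and 394 with the Kif1bβ tail. Its ratio averaged 0.04 ± 0.133 in the perturbed and −0.12 ± 0.0509 in the control transfections, a difference of 0.16 ± 0.112 (SE, limma adjusted p = 0.975). The CTG480 and CTG0 ratios of Pcbp2 were both −0.09.

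Levels averaged over both fractions were compared between the same transfections. Again 0% of genes passed an adjusted p of 0.05 in limma (0 genes, with 304, or 3.09%, at an unadjusted p under 0.05), and all 8 genes had an adjusted p of 0.999. The differences on the log2 scale ran from −0.07 for Ftl1 to 0.10 for Fbxl5. Aco1 (0.08) and Fbxl5 were higher in every perturbed than in every control transfection, as were 7.30% of genes, and Ftl1 was lower in every one, as were 8.69% of genes. Their unadjusted p was 0.175 for Aco1, 0.0886 for Fbxl5 and 0.193 for Ftl1.

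Taken pair by pair, each transfection had 1 library per fraction and no replicate, so differences of at least 0.10 in localization ratio were counted without a test. With CTG480 against CTG0, Aco1 (0.12) and Pcbp1 (0.27) were higher, beside 31.1% of all genes, and Tfrc (−0.10), Fth1 (−0.11), Ireb2 (−0.17) and Fbxl5 (−0.31) were lower, beside 32.1% of all genes. The Fbxl5 value came with 0.22 in soma and −0.09 in neurites, as log2 ratios of TPM. By transcript, NM_001159963 had a localization ratio of 0.10 with CTG480 and 0.20 with CTG0. The low transcript NM_178729 (mean 3.11 TPM) had −1.05 with CTG480 and 0.88 with CTG0. Over all genes the 5th and 95th percentiles of the CTG480 difference were −0.43 and 0.44, a range that held all 8.

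With the Kif1bα tail against the Kif1bβ tail, Tfrc (0.17), Pcbp1 (0.42) and Pcbp2 (0.19) were higher, beside 32.5% of all genes, and Aco1 (−0.13) was lower, beside 30.5%. For Tfrc, neurites held 148 TPM with the Kif1bα tail against 128 with the Kif1bβ tail, and soma held 197 TPM with the Kif1bα tail against 191 with the Kif1bβ tail. With the Kif1c tail against the Kif1bβ tail, Ireb2 (0.21), Pcbp1 (0.37) and Pcbp2 (0.33) were higher, beside 32.8% of all genes, and Aco1 (−0.18) was lower, beside 32.9%. Both tail comparisons share the Kif1bβ libraries and so are not independent of each other. With a common sum over all rows, the tail comparisons had 6 genes higher and 0 lower for Kif1bα and 7 higher and 0 lower for Kif1c, where the median of all genes moved to 0.08 and 0.12. For CTG480 that scaling left 2 genes lower.

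**Figure D3:**
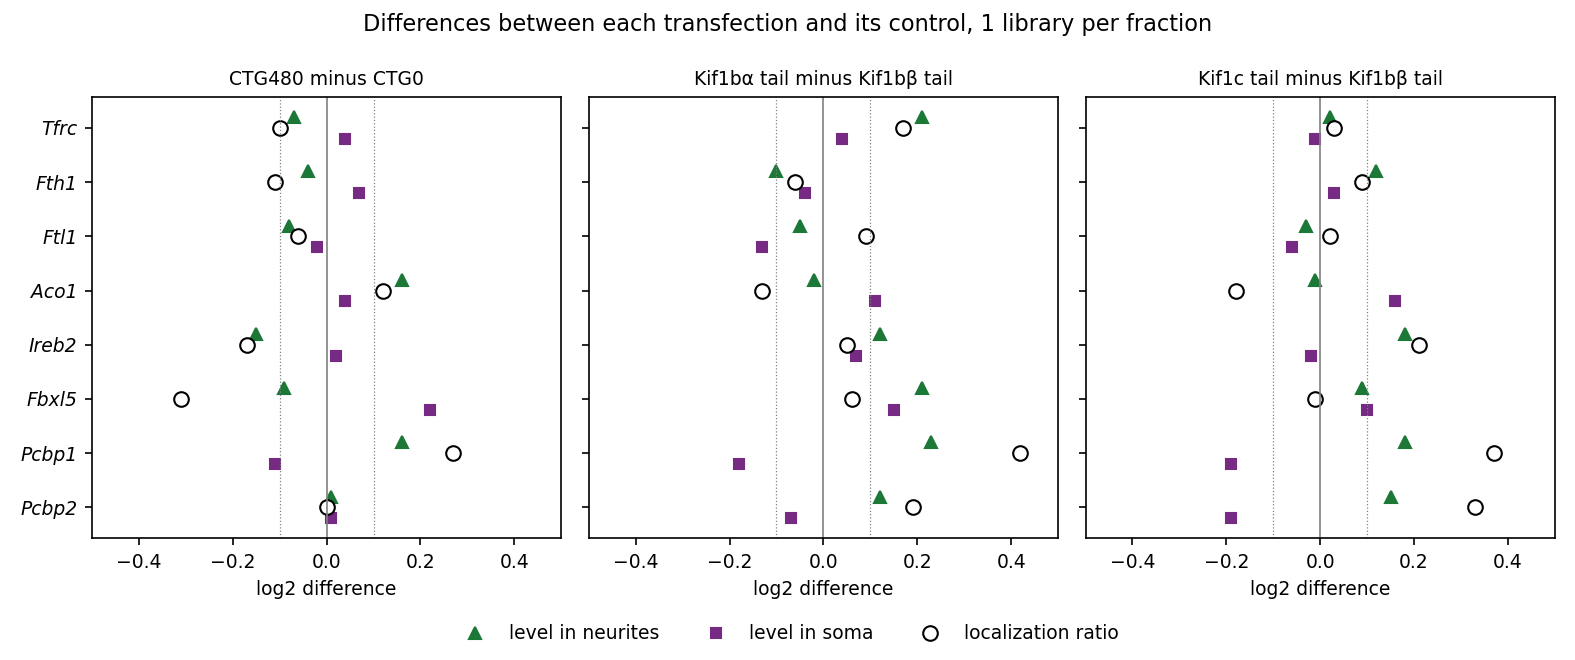
Differences between each transfection and its control on the log2 scale, for the localization ratio (open circles), the level in neurites (triangles) and the level in soma (squares), with dotted lines at −0.10 and 0.10. Each point rests on 1 library per transfection and fraction. For Pcbp1 the neurite level was higher and the soma level lower in all 3 panels, as it also was under both scalings to a common sum. The Kif1bα and Kif1c panels share the Kif1bβ libraries, and the share of all genes with this pattern was not counted.

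MBNL proteins bind short motifs of GC between pyrimidines (UGCU and its variants with C at either end), and the study asked whether their targets move. On the transcript's own strand, with overlapping matches counted, Fth1 had 55.26 and Pcbp1 50.07 of these motifs per kilobase of 5′ and 3′ UTR. The median over 12269 transcripts of tested genes was 15.07, with quartiles at 11.78 and 19.36. Tfrc had 11.55, Ireb2 10.08, Aco1 20.65 and Ftl1 28.85. Transcripts of Fbxl5 had 11.46 and 11.42, and those of Pcbp2 18.25, 8.74 and 22.41. Fth1 and Pcbp1 have short UTRs (224 and 156 bases for Fth1, 406 and 353 for Pcbp1, 5′ then 3′), while Tfrc has a 3′ UTR of 2458 bases. With CTG480 against CTG0 the ratio differed by −0.11 for Fth1 and by 0.27 for Pcbp1, with 1 library per transfection and fraction. Both lay between the 5th and 95th percentiles of all genes, −0.43 and 0.44. The paper used another measure, the density of CLIP tags (mapped MBNL1 binding) in UTRs. It reported that mRNAs with denser tags moved further from neurites with CTG480. A link between motif density and localization was not tested here.

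Other genes that handle iron were taken from 7 lists with 76 genes, of which 58 were tested against soma in the model of all genes. Neurites were higher for 13 of the 58 (22.4%, beside 19.4% of all genes) and soma for 3 (5.17%, beside 18.6%), with a median ratio of 0.10 beside 0.01. Scaled to a common sum, the split became 48 toward neurites and 0 toward soma over all rows, and 35 and 0 over protein-coding rows. In the comparison of localization ratios between perturbed and control transfections, 0 of the 58 passed in limma at an adjusted p of 0.05, and 6 did at an unadjusted p under 0.05. Within this wider group the genes for building iron-sulfur clusters held the largest differences in both directions. Their mitochondrial and cytosolic lists also held 16 and 9 of the 58 tested genes, so no trait of the class is read from this. Toward soma, Lyrm4 (−0.37) and Fdx1l (−0.36) were hardly apart from Slc39a14 (−0.36) of the transport list.

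Among transporters, Slc40a1, the exporter ferroportin, was higher in neurites, at 33.3 ± 3.03 TPM, than in soma, at 26.1 ± 1.05 TPM (SD, n = 5 each), with a ratio of 0.35 ± 0.0552 (SE, limma adjusted p = 0.00309) and 5 of 5 transfections above 0. Its mRNA carries a hairpin of the same kind in the 5′ UTR, in exon 1 at chr1:45925465-45925493 on the minus strand. Mcoln1, a lysosomal channel that releases iron, was lower in neurites, at 37.4 ± 2.39 TPM, than in soma, at 42.7 ± 2.23 TPM (SD, n = 5 each), with a ratio of −0.19 ± 0.0595 (SE, limma adjusted p = 0.04). Mcoln1 changed sign with a common sum over all rows (0.15). Relative to the median of all genes it was at −0.20 under all 3 scalings, which such scaling cannot change. Mcoln1 did not pass without CTG480 (−0.187), the Kif1c tail (−0.149), CTG0 (−0.171) or the Kif1bβ tail (−0.189). The other 5 of 7 transport genes did not pass, among them Slc11a2, the importer DMT1, at 0.02, and Steap3, the endosomal ferrireductase, at −0.13. Slc39a14 did not pass either, at −0.36 ± 0.126 (SE, limma adjusted p = 0.0559), though its difference was larger than that of Mcoln1. The list's median was −0.12.

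The Slc40a1 hairpin is shown, loop in capitals, because it is the same kind of element in an mRNA that passed toward neurites.
Slc40a1 hairpin: caacuucagcuaCAGUGUuagcuaaguuu

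Besides Slc40a1 and Slc11a2, 2 mRNAs listed as known for an iron responsive element are reported here, and neither passed: Cdc42bpa, a kinase, was at −0.05 and Cdc14a, a phosphatase, at −0.10. As deposited, the ratios of the mRNAs reported here with a 5′ UTR match to the hairpin were 0.36 for Ftl1, 0.35 for Slc40a1, 0.27 for Tmem14c and 0.06 for Fth1. The Tmem14c match formed only 4 of 5 pairs above the bulge and ran across an exon junction. Of those with a match in the 3′ UTR, Tfrc was at −0.55, Bola3, an assembly factor, at −0.22, Cdc14a at −0.10 and Slc11a2 at 0.02. The last 3 did not pass. They had fewer of the lower pairs than Tfrc in the fixed alignment used. That count allows no extra unpaired base, so it does not grade the elements, and Slc11a2 is itself known for one. Tfrc was known beforehand to be higher in soma, and the set was picked around it. The other genes with a match were not compared, and whether the ratio goes with the place of the hairpin was not tested.

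Most partners of the set did not pass. In the list of genes around Fbxl5 and its ligase, Rbx1, the RING subunit, was higher in neurites (103 ± 5.99 TPM) than in soma (88.7 ± 3.42 TPM, SD, n = 5 each). Its ratio was 0.21 ± 0.0433 (SE, limma adjusted p = 0.00889). On that list 3 of 4 genes did not pass (Skp1a, Cul1 and Herc2). Among ferritin turnover genes and chaperones, Pcbp4, a relative of Pcbp1, was higher in neurites, with a ratio of 0.24 ± 0.0383 (SE, limma adjusted p = 0.00305). Ncoa4, the receptor that takes ferritin to the lysosome, was at 0.10 and was among the 4 of 5 genes of that list that did not pass.

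Mitochondrial assembly of iron-sulfur clusters had 4 genes higher in neurites, 2 higher in soma and 10 that did not pass. Fdx1, a ferredoxin that donates electrons, had a level in neurites of 11.5 ± 1.5 TPM and in soma of 6.97 ± 1.49 TPM (SD, n = 5 each), a ratio of 0.73 ± 0.11 (SE, limma adjusted p = 0.00251). Nfs1, the cysteine desulfurase that supplies the sulfur, was at 0.32 and Glrx5, which hands clusters on, at 0.32, each with 5 of 5 transfections above 0. Fdxr, the reductase of the ferredoxins, was at 0.27 (limma adjusted p = 0.0269) and is named after its value was seen. The genes higher in soma were Lyrm4, the partner of Nfs1 (−0.37), and Fdx1l, the second ferredoxin (−0.36), each below 0 in 5 of 5 transfections. Neither passed with a common sum over all rows, at −0.035 for Lyrm4 and −0.027 for Fdx1l, and Lyrm4 did not pass without CTG480 (−0.284).

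Cytosolic assembly had 3 of 9 genes higher in neurites and 0 higher in soma: Ciapin1, an electron carrier (0.47 ± 0.0609 SE, limma adjusted p = 0.0014), Nubp2, a scaffold subunit (0.42), and Fam96a, which in human cells matures IRP1 (0.31). Of the heme genes, 3 of 15 were higher in neurites and 0 in soma: Urod, a synthesis enzyme (0.28), Tmem14c, which moves a heme precursor into mitochondria (0.27), and Blvrb, a biliverdin reductase (0.22). Tmem14c did not pass without the Kif1bα tail (0.282), the Kif1c tail (0.205) or CTG0 (0.226). Hmox1, which breaks heme down, was at 0.17 and did not pass.

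**Figure D4:**
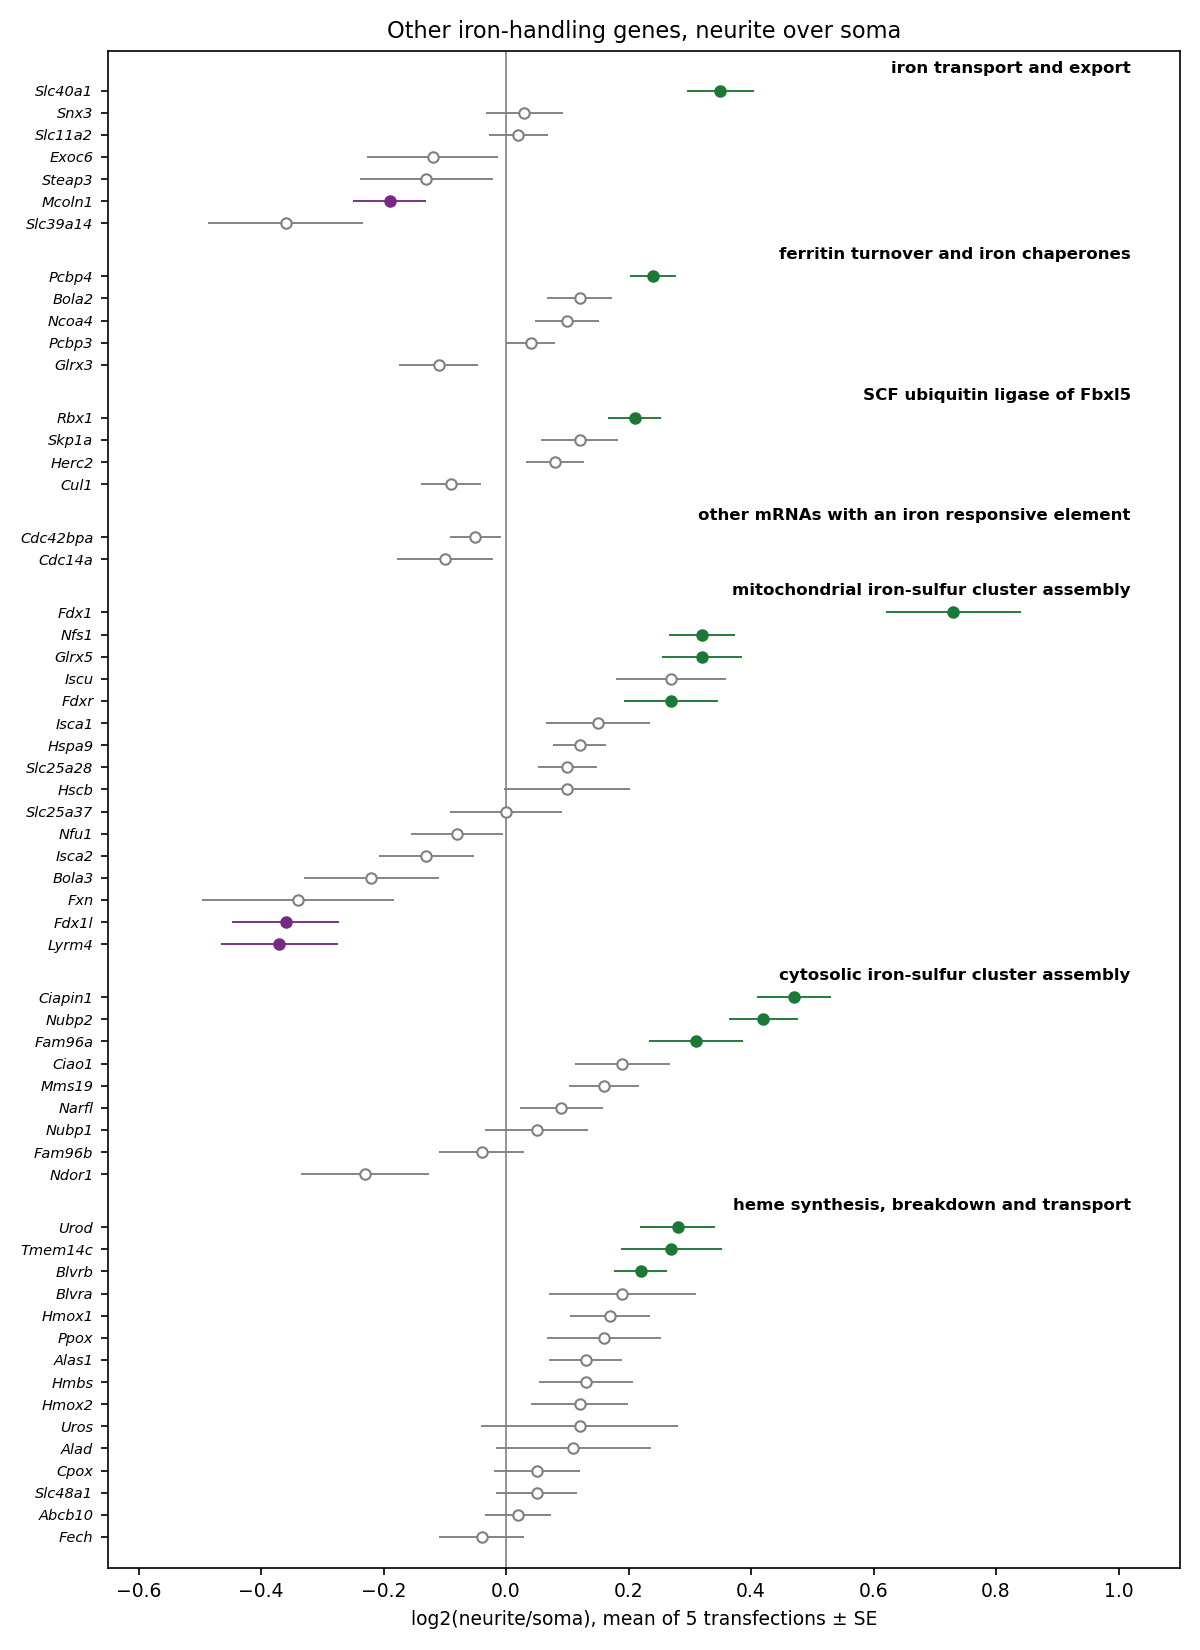
Mean log2(neurite/soma) over 5 transfections with its SE for the 58 tested genes of 7 iron lists, filled where the limma adjusted p was under 0.05 (green toward neurites, purple toward soma). Points run from −0.37 (Lyrm4) to 0.73 (Fdx1), with 13 filled points on the neurite side and 3 on the soma side.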

How the data were processed

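Reads were demultiplexed by the authors (bcl2fastq 2.20) and assigned to mm10 RefSeq transcripts by kallisto 0.43.0, and libraries were then normalized to each other by cyclic loess. The deposited signal values are linear TPM whose sums differ between libraries, with no counts. A second deposited table holds the authors' own log2 ratios and was not used. The 5 plasmid rows and 3 rows without a gene were left out. TPM were summed by gene. Some genes of the wider lists, with values that would change the counts of those lists, are not reported here. The members and lists were chosen with earlier results of these data known. Named genes were all members, the 3 largest passing genes of each wider list in each direction, and the 5 genes most correlated with Tfrc. A few other list genes, most of which did not pass, were named after their values were seen.

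Tests used limma 3.58.1 (R 4.3.3; linear fits with a mean-variance trend, 2-sided) on log2(TPM + 0.1), for genes with a mean of at least 5 TPM, with Benjamini-Hochberg adjustment over all 9853 genes. Transfection was a block between neurites and soma, which came from the same wells. Deviations of paired libraries correlated between −0.03 and 0.05 across genes, within the range of −0.12 to 0.10 for libraries of different transfections. Fits were tested on simulated data. Hairpins, motifs and transcript structures came from GENCODE on GRCm38, matched to 11 of 11 member transcripts. Alternatives covered pseudocount, minimum, scaling, transcript set, trend, block and each transfection left out.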

Additional observations from a re-analysis of the deposited data

Results flagged for a closer look

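Of 69 sets of 5 values examined for the 8 genes and the genes of the wider lists named by size (neurite levels, soma levels and localization ratios), 5 held a library far from the other 4 by Dixon's criterion, which chance meets in about 1 set in 20. Tfrc in neurites was 148 TPM with the Kif1bα tail, where the other 4 libraries lay between 124 and 130 TPM. Aco1 in neurites was 17.0 TPM with CTG0, where the others lay between 18.7 and 19.0 TPM. Rbx1 in neurites was 113 TPM with CTG480, where the others lay between 97.9 and 102 TPM. Nfs1 in soma was 17.6 TPM with CTG480, where the others lay between 20.2 and 21.0 TPM. The localization ratio of Glrx5 was 0.02 with the Kif1bα tail, where the others lay between 0.36 and 0.44.

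The localization ratio of Pcbp1 was above 0 in 3 of 3 perturbed and below 0 in 2 of 2 control transfections, a difference of 0.36. The test of that difference did not pass over all genes (limma, adjusted p = 0.939), and 1.30% of all genes had the same arrangement of signs.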

How the results depend on the processing

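The depth of the libraries is unknown and each transfection was done once, which limits every comparison. Scaling mattered most. With a common sum over all rows, 7093 of all genes and 48 of the wider iron genes passed toward neurites, and 203 and 0 toward soma. With a common sum over protein-coding rows, 4339 of all genes and 35 of the wider genes passed toward neurites, and 893 of all genes and 0 wider genes toward soma. Mcoln1 (0.15) changed sign with a common sum over all rows. Its value relative to the median of all genes (−0.20) cannot change under such scaling.

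In the pair comparisons, a common sum over all rows gave 2 genes lower for CTG480, 6 higher and 0 lower for the Kif1bα tail and 7 higher and 0 lower for the Kif1c tail, and a common sum over protein-coding rows gave 5 higher and 0 lower for the Kif1bα tail. Past 0.25, CTG480 had 1 higher and 1 lower, the Kif1bα tail 1 higher and 0 lower and the Kif1c tail 0 lower. With 5 of 5 pairs required, 15 genes had a hairpin in the 5′ UTR and 67 in the 3′ UTR. Without the transfection as a replicate block, 2103 genes passed toward neurites and 1965 toward soma, with 15 of the wider genes toward neurites and 4 toward soma. Leaving out a transfection gave between 1281 and 1707 genes toward neurites and between 1357 and 1646 toward soma, with 12 to 16 of the wider genes toward neurites and 2 to 4 toward soma. The cause of these changes was not tested.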
